A study of Mus musculus with 6 samples.

Results

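Hox genes encode homeodomain transcription factors, and 36 of the 18477 genes in the deposited colon table have a symbol made of Hoxa, Hoxb, Hoxc or Hoxd followed only by digits. These 36 genes were described in 6 colon libraries, 3 from mice with colitis and 3 from mice with colitis that received *Bacteroides vulgatus* (BV). The Hoxa cluster gave 11 members, Hoxb 9, Hoxc 7 and Hoxd 9. Hoxb1, Hoxc12 and Hoxc13 were not analysed here. Of the 36 members, 28 passed the filter on low counts and entered the test. Those that did not include Hoxc5, Hoxc6, Hoxc8, Hoxc9, Hoxc10, Hoxc11 and Hoxd1.

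All mice were male C57BL/6 animals of 6 to 8 weeks at purchase, and all drank 2% (w/v) dextran sulfate sodium (DSS), which damages the lining of the colon and brings on colitis, for the last 7 of 14 days. The DSS group (n = 3) received PBS by daily gavage for the 14 days, and the DSS+BV group (n = 3) received the bacterium suspended in PBS. A group without DSS was not analysed here, so every value below comes from a colon exposed to DSS. The labels give the tissue as colon and name no segment of it.

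The 4 Hox clusters lie on different chromosomes, and within a cluster the genes are numbered by paralogue group, from the anterior end to the posterior end. Along the body axis, and along the gut tube, low numbers are classically used from more anterior levels and high numbers only near the tail end, a rule called collinearity. In the gut, Hox genes are transcribed in mesenchyme, muscle, enteric nerve cells and epithelium, and Hoxb13 and Hoxd13 are known from its last part. On the build GRCm38.p6, the Hoxa cluster lies on chromosome 6, the members of Hoxb span chr11:96194316-96354020, those of Hoxc chr15:102954526-103036856 and those of Hoxd chr2:74668225-74765142. Hoxb13 is separated from Hoxb9, its nearest protein-coding Hox neighbour, by 74.7 kb.

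Values of a group are given in the order of replicates 1, 2 and 3. The libraries held between 15293276 and 17254343 expected counts, the read estimates of the program RSEM. Levels are given as CPM, counts scaled to a common library total, and 3 counts correspond to between 0.175 and 0.198 CPM. The defining genes of colon epithelium were abundant in every library (12 of 12 listed markers in the table; summed level 14034 to 24093 CPM in the DSS group and 24387 to 43650.1 CPM in the DSS+BV group). Markers of anorectal squamous epithelium, which borders the end of the colon, summed to 1.68 to 4.13 CPM in the DSS group and 1.2 to 3.03 CPM in the DSS+BV group. Of its 10 markers in the table, 8 stayed below 1 CPM everywhere. Fibroblast markers summed to 3148 to 3838 CPM in the DSS group and 1316 to 2112 CPM in the DSS+BV group. Those of enteric neurons and glia summed to 69.0 to 265 CPM and 49.2 to 53.4 CPM. Smooth muscle markers overlapped, at 3655 to 4579 CPM and 2868 to 4389 CPM. Blood endothelium markers summed to 425 to 569 CPM and 290.2 to 372 CPM. The part of these cell markers in the Hox values was not tested. In bulk tissue, fewer cells of a type and less RNA per cell cannot be told apart.

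The Hox profile differed mainly from library to library. Levels of different genes were compared per length, as CPM per kilobase (kb) of annotated exon. On this scale the 28 tested members together summed to 238, 153 and 177 CPM per kb in DSS 1, 2 and 3, against 252, 209 and 172 CPM per kb in the DSS+BV libraries. Averaged over the 6 libraries, the highest level per length was that of Hoxb13, at 55.4 CPM per kb, followed by Hoxb9 at 19.5, Hoxd13 at 16.1, Hoxa10 at 11.1, Hoxa6 at 10.7 and Hoxa9 at 10.4 CPM per kb. Hoxb13 was not the highest in DSS 2, where Hoxa9 led at 20 CPM per kb and Hoxb13 stood at 16.5. Nor was it in DSS+BV 3, where Hoxb9 was highest at 37.6 CPM per kb. The order below Hoxb13 also changed between libraries, with Hoxd13 at 39.8 and Hoxb9 at 8.37 CPM per kb in DSS 1. The Hoxc cluster was low, with a highest mean level of 0.567 CPM per kb for Hoxc6, which reached 1.13 and 2.04 CPM per kb in DSS+BV 2 and DSS+BV 3.

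**Figure D1:**
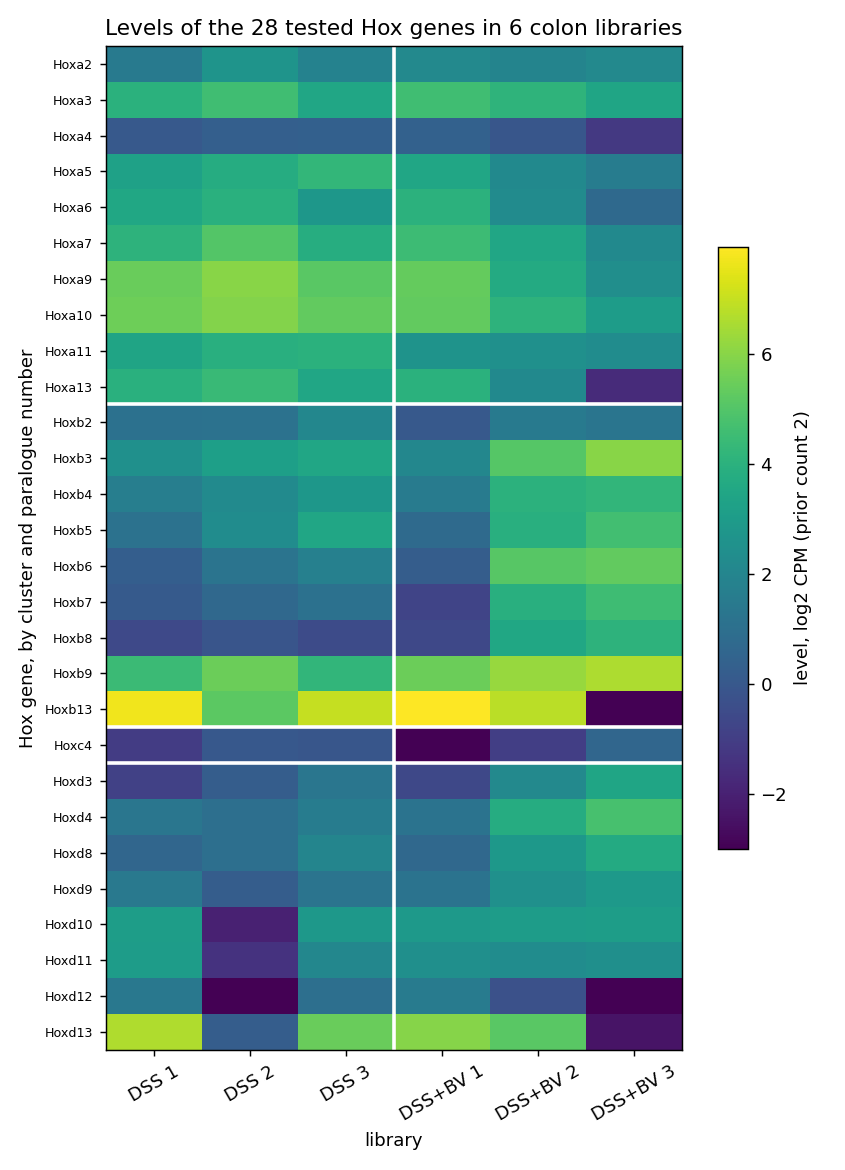
Level of each of the 28 tested Hox genes (rows, ordered by cluster and paralogue number) in each library (columns) as log2 CPM (prior count 2), with white lines between clusters and groups. Hoxb3 to Hoxb9 are brightest in DSS+BV 2 and DSS+BV 3, Hoxa9 and Hoxa10 are dimmest there, and Hoxb13 and Hoxd13 reach the bottom of the scale or near it in DSS+BV 3.

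By cluster, Hoxa genes held 30.1%, 68.6% and 36.9% of the summed Hox level per length in the DSS libraries and 31.9%, 16.7% and 10.6% in DSS+BV 1, 2 and 3. Hoxb genes held 46.5%, 29.3% and 46.1% against 53.3%, 66.5% and 71.0%. The Hoxd share was 23.4%, 1.92% and 16.9% in the DSS group and 14.8%, 16.7% and 18.1% in the DSS+BV group, so that DSS 2 alone was almost without it. By paralogue number, the posterior genes of groups 9 to 13 held 82.7%, 58.3% and 70.8% in the DSS libraries and 79.3%, 57.3% and 33.0% in DSS+BV 1, 2 and 3. DSS+BV 3 was the library with the lowest posterior share and also with the largest central share (groups 4 to 8), at 49.8%. The DSS and DSS+BV groups overlapped in each of these shares except that of Hoxb, where every DSS+BV library was above every DSS library. Different genes made up that share. Hoxb13 alone held 40.2%, 10.8% and 32.2% in the DSS libraries and 44.6%, 24.4% and 0% in DSS+BV 1, 2 and 3. The mean log2 CPM of the Hoxb genes overlapped between the groups, at 2.03, 2.37 and 2.81 against 1.86, 4.45 and 3.74.

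**Figure D2:**
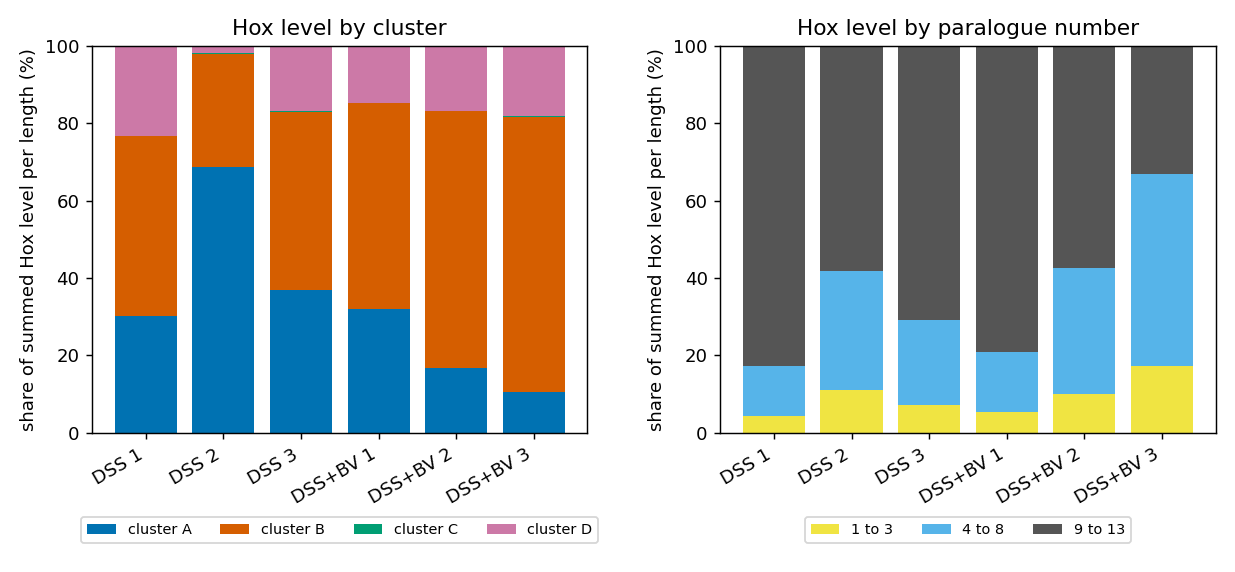
Share of the summed Hox level per length (percent of CPM per kb over the 28 tested members) in each library, by cluster on the left and by paralogue number on the right. The Hoxd share is 1.92% in DSS 2 and 14.8% or more in the other libraries, and the share of groups 9 to 13 is 33.0% in DSS+BV 3 and 57.3% or more in the others.

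The mean log2 CPM of the posterior members minus that of all other tested members placed the libraries on 1 scale. The difference was 2.86 in DSS 1, 0.32 in DSS 2 and 1.69 in DSS 3 (mean 1.62 ± 1.27, SD, n = 3), and 2.84 in DSS+BV 1, 0.61 in DSS+BV 2 and -1.88 in DSS+BV 3 (mean 0.52 ± 2.36, SD, n = 3). The means differed by -1.10, less than either SD. DSS 1 and DSS+BV 1 stood together at the posterior end, and the lowest DSS library lay below DSS+BV 2.

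The 3 genes of paralogue group 13, the last of each cluster, were all lowest in DSS+BV 3 but differed in DSS 2. There Hoxb13 and Hoxd13 had their next lowest level and Hoxa13 its highest. Hoxb13 (Entrez gene 15408, chr11:96194316-96196610), a homeodomain factor of the tail end, prostate and distal colon, was at 211, 36.4 and 125 CPM with DSS alone and 248, 112 and 0 CPM with BV added. The 0 stands for no count in DSS+BV 3 where 3755 were assigned in DSS+BV 1, a level at least 1307-fold higher in DSS+BV 1 when 3 counts are taken as the floor in DSS+BV 3. Hoxd13 (Entrez gene 15433, chr2:74668225-74671603), which acts with Hoxa13 in the terminal hindgut, genital tract and digits, was at 98.8, 1.06 and 42.9 CPM with DSS alone and 61.9, 35.2 and 0.0632 CPM with BV added. It was low in DSS 2 (17 counts) as well as in DSS+BV 3 (1 count). Hoxa13 (Entrez gene 15398, chr6:52258853-52260880) was at 15.1, 21.0 and 11.1 CPM with DSS alone and 15.6, 4.46 and 0.190 CPM with BV added. Its highest level of the 6 was thus in DSS 2, the library where Hoxd13 was nearly lost.

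The other posterior Hoxd genes set DSS 2 apart from DSS+BV 3. Hoxd10 was at 8.50, 0.124 and 7.10 CPM with DSS alone and 7.12, 8.09 and 8.41 CPM with BV added. Hoxd11 was at 8.20, 0.249 and 4.08 CPM with DSS alone and 5.28, 4.91 and 5.31 CPM with BV added. Both genes, which pattern limb and lumbosacral levels, were low in DSS 2 alone, with 2 and 4 counts, and lay close together in the 3 DSS+BV libraries. Hoxd12 was low at both ends, at 2.45, 0 and 1.86 CPM with DSS alone and 2.84, 0.701 and 0 CPM with BV added. DSS 2 thus had 17 counts or fewer of each gene from Hoxd10 to Hoxd13 but the highest Hoxa9, Hoxa10 and Hoxa13 of the 6 libraries. DSS+BV 3 had 3 counts or fewer of Hoxa13, Hoxb13, Hoxd12 and Hoxd13 but kept Hoxd10 and Hoxd11. The annotated spans of Hoxd10 and Hoxd11 overlap, so reads could be divided between them.

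**Figure D3:**
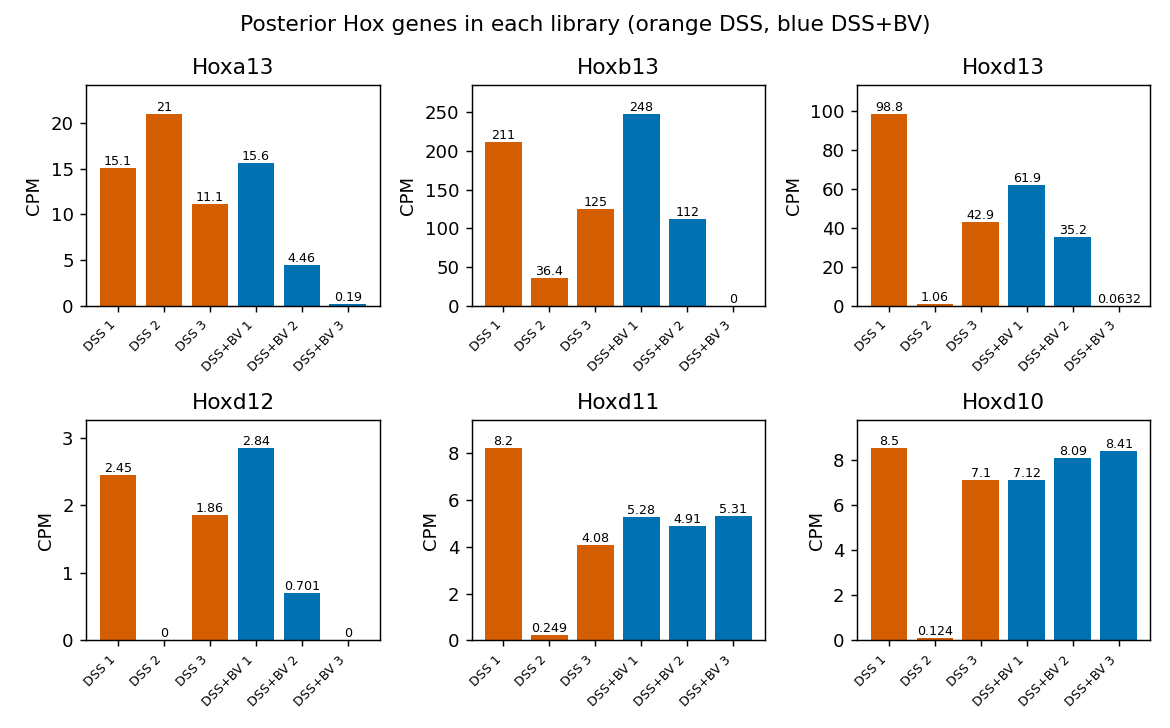
CPM of the 3 genes of paralogue group 13 and of Hoxd12, Hoxd11 and Hoxd10 in each library, with DSS in orange and DSS+BV in blue; each panel starts at 0 and has its own scale. Hoxd10 and Hoxd11 are low in DSS 2 alone, whereas Hoxa13 and Hoxb13 are lowest in DSS+BV 3.

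The homeobox genes Evx1 and Evx2 lie next to the posterior ends of the Hoxa and Hoxd clusters, 52.6 kb from Hoxa13 and 6.7 kb from Hoxd13, and were chosen for this place. Evx1 was at 2.69, 4.79 and 1.86 CPM with DSS alone and 3.50, 0.382 and 0.0632 CPM with BV added. Evx2 was at 9.16, 0.0622 and 4.48 CPM with DSS alone and 2.57, 1.53 and 0 CPM with BV added. Evx1 was highest in DSS 2, as Hoxa13 was, and Evx2 was lowest in the same libraries as Hoxd13.

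In the Hoxa cluster, Hoxa4, Hoxa5, Hoxa6, Hoxa7, Hoxa9, Hoxa10, Hoxa11 and Hoxa13 all had their 2 lowest values in DSS+BV 2 and DSS+BV 3. Hoxa9 (Entrez gene 15405), a factor of posterior identity and of blood progenitors, was at 43.0, 64.5 and 35.1 CPM with DSS alone and 41.3, 12.8 and 5.12 CPM with BV added. Hoxa10 (Entrez gene 15395), known for its part in the uterus, was at 46.2, 59.7 and 39.2 CPM with DSS alone and 39.7, 16.6 and 8.09 CPM with BV added. For Hoxa9 and Hoxa10, DSS+BV 1 lay within the DSS values and the other DSS+BV libraries lay below them.

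Hoxa5 (Entrez gene 15402), a regulator of lung and gut mesenchyme, was at 9.52, 13.5 and 18.8 CPM with DSS alone and 11.0, 4.46 and 2.91 CPM with BV added. Hoxa6 was at 11.4, 15.3 and 6.87 CPM with DSS alone and 16.3, 4.78 and 1.52 CPM with BV added, and Hoxa7 at 16.6, 32.0 and 14 CPM with DSS alone and 22.4, 11.1 and 4.49 CPM with BV added. Hoxa11 (Entrez gene 15396), a limb and urogenital factor, differed from these in that DSS+BV 1 was low too. It was at 10.2, 15 and 15.7 CPM with DSS alone and 5.94, 5.42 and 4.80 CPM with BV added, and it was the only tested Hox gene whose groups did not overlap. Hoxa11 shares its annotated span with the opposite-strand gene Hoxa11os. The anterior members Hoxa2 and Hoxa3, which pattern the pharyngeal region, ranged only from 2.69 to 6.15 CPM and from 10.8 to 24.2 CPM over the 6 libraries.

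In the Hoxb cluster, the genes between Hoxb2 and Hoxb13 went the other way in DSS+BV 2 and DSS+BV 3. All 7 genes from Hoxb3 to Hoxb9 had their 2 highest values in DSS+BV 2 and DSS+BV 3. Hoxb6 (Entrez gene 15414) was at 1.08, 2.18 and 3.32 CPM with DSS alone and 1.06, 34.2 and 40.0 CPM with BV added. Hoxb7 (Entrez gene 15415) was at 0.958, 1.49 and 1.98 CPM with DSS alone and 0.462, 14.7 and 23.0 CPM with BV added. For Hoxb8 (Entrez gene 15416), used to hold myeloid progenitors in culture, the values were 0.539, 0.808 and 0.582 CPM with DSS alone and 0.528, 11.5 and 16.8 CPM with BV added. In all 3 genes DSS+BV 1 had the lowest value of the 6 libraries.

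Hoxb9 (Entrez gene 15417) was at 21.6, 45.2 and 18.2 CPM with DSS alone and 44.1, 75.8 and 96.8 CPM with BV added, and DSS 2 alone kept the groups from being separate. Hoxb3, Hoxb4 and Hoxb5, the last a regulator of Ret in the nerve cells of the gut, ranged from 5.51 to 11.0, from 3.05 to 6.87 and from 2.04 to 11.0 CPM in the DSS group. In DSS+BV 1, 2 and 3 Hoxb3 was at 4.09, 33.5 and 64.6 CPM, Hoxb4 at 2.84, 16.4 and 18.3 CPM, and Hoxb5 at 1.58, 15 and 24.8 CPM. Hoxb2 did not share this order, with 1.98, 2.05 and 4.02 CPM with DSS alone and 0.923, 2.61 and 2.28 CPM with BV added. Hoxb3 and Hoxb4 overlap in the annotation, and the spans of Hoxb5 and Hoxb6 overlap Hoxb5os.

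In the Hoxd cluster, the genes Hoxd3, Hoxd4, Hoxd8 and the posterior gene Hoxd9, like Hoxb3 to Hoxb9, had their highest values in DSS+BV 2 and DSS+BV 3. Hoxd4 (Entrez gene 15436) was at 2.34, 1.87 and 2.91 CPM with DSS alone and 2.11, 13.4 and 27.0 CPM with BV added. Hoxd3 reached 4.27 and 10.6 CPM in DSS+BV 2 and 3, against 0.419 to 2.33 CPM elsewhere. Hoxd8 reached 7.01 and 12.6 CPM against 1.38 to 3.84 CPM, and Hoxd9 5.48 and 7.14 CPM against 1.06 to 2.51 CPM.

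Counted over the tested members, 11 of 28 had their 2 highest values in DSS+BV 2 and DSS+BV 3 and 8 of 28 their 2 lowest values there. The first order held for 11.7% of all 14579 tested genes and the second for 16.3%. It was counted after the values were seen and compares libraries, not treatments. Members of the same paralogue group went opposite ways by cluster: of groups 4 to 9, every tested Hoxa gene was in the second set and every tested Hoxb and Hoxd gene in the first. The only tested gene of the Hoxc cluster, Hoxc4, was in neither, at 0.359, 0.870 and 0.815 CPM with DSS alone and 0, 0.382 and 1.39 CPM with BV added.

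Among the members below the filter, Hoxc6 had 0, 2 and 2 counts in DSS 1, 2 and 3 and 2, 28 and 51 counts in DSS+BV 1, 2 and 3. Hoxc10 had no count in the DSS group and 0, 10 and 14 counts in the DSS+BV group. Hoxc5, Hoxc8, Hoxc9, Hoxc11 and Hoxd1 had at most 5 counts in any library. A level of Hoxc5, Hoxc8, Hoxc9, Hoxc11 or Hoxd1 that differs between the groups was not detectable at this depth.

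The design asks whether *B. vulgatus* changed expression in the inflamed colon. No Hox gene was called in the DSS+BV group against the DSS group by edgeR's quasi-likelihood test, with genes called at a Benjamini-Hochberg adjusted p under 0.05 together with more than a 2-fold difference. The test called 13 of 14579 genes (0.0892%), all 13 lower. At an unadjusted p under 0.05, 7 of the 28 tested members stood out (25.0%, against 12.5% of all tested genes), Hoxa11 on the lower side and Hoxb6, Hoxb7, Hoxb8, Hoxb9, Hoxd4 and Hoxd9 on the higher side. Over all tested genes, 9.12% were on the lower side and 3.4% on the higher side at that p. Groups did not overlap for 1 of 28 members (3.57%), against 17.6% of all tested genes (11.3% lower and 6.37% higher). Log2 fold changes below are DSS+BV against DSS, each with the standard error derived from its F statistic.

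The smallest p-value among the members belonged to Hoxa11, which averaged 13.6 ± 2.99 CPM with DSS alone and 5.39 ± 0.566 CPM with BV added (SD, n = 3 mice each). On the log2 scale the difference was -1.34 (standard error 0.244, edgeR adjusted p = 0.173). Hoxb8 averaged 0.643 ± 0.145 CPM with DSS alone and 9.58 ± 8.28 CPM with BV added (SD, n = 3 mice each), 3.88 higher on the log2 scale (standard error 1.10, edgeR adjusted p = 0.313). The differences of Hoxb6, Hoxb7 and Hoxd4 were 3.51, 3.1 and 2.57, with edgeR adjusted p-values of 0.345, 0.367 and 0.336. In each of these 4 genes, DSS+BV 1 lay within or below the DSS range and the other DSS+BV libraries above it. Without DSS+BV 1, Hoxb8 was called (log2 fold change 4.45, edgeR adjusted p = 0.0404), and without DSS+BV 3 it was not (3.21, edgeR adjusted p = 0.661). Without DSS+BV 3 the differences of Hoxb6, Hoxb7 and Hoxd4 were 3.01, 2.36 and 1.71.

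Hoxb13 averaged 124 ± 87.3 CPM with DSS alone and 120 ± 124 CPM with BV added (SD, n = 3 mice each), and the log2 difference was -0.05 (standard error 1.56, edgeR adjusted p = 0.992). The log2 difference of Hoxd13 was -0.56 (standard error 1.67) and that of Hoxa13 -1.22 (standard error 1.07), neither called. With standard errors of this size, a difference between the groups in group 13 was not detectable here. With DESeq2, the tool of the study's methods, in place of edgeR, 6 of 32 members with an adjusted p were called (18.8%, against 2.01% of 16152 genes, 1.73% lower and 0.279% higher). These were Hoxa11 on the lower side (DESeq2 adjusted p = 0.000508) and Hoxb6, Hoxb7, Hoxb8, Hoxc6 and Hoxd4 on the higher side (DESeq2 adjusted p between 0.00323 and 0.0489).

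By cluster, 8 of 10 tested Hoxa genes had a log2 fold change below 0 and the median was -0.95. Of the 9 Hoxb genes 7 were above 0, with a median of 1.37, and of the 8 tested Hoxd genes 6 were above 0, with a median of 0.97. The median was 0.02 over all 28 tested members and -0.01 over all tested genes. By paralogue number the medians were 0.02 for the anterior groups 1 to 3, 1.29 for the central groups and -0.30 for the posterior groups. More than a 2-fold difference was found for 16 of the 28 members, against 9.29% of all tested genes, without any of the 16 being called by edgeR. Leaving out 1 library moved the Hoxa median to between -1.61 (without DSS+BV 1) and -0.48 (without DSS+BV 3), and the posterior median to between -1.40 (without DSS+BV 1) and 0.55 (without DSS 1). The central median ran from 0.66 (without DSS+BV 3) to 1.85 (without DSS 3), the Hoxb median from 1.09 (without DSS+BV 3) to 1.99 (without DSS 3) and the Hoxd median from 0.56 (without DSS 2) to 1.27 (without DSS 1). The anterior median ran from -0.05 (without DSS 3) to 0.44 (without DSS 2), and that of all 28 members from -0.05 (without DSS 3) to 0.56 (without DSS 1).

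**Figure D4:**
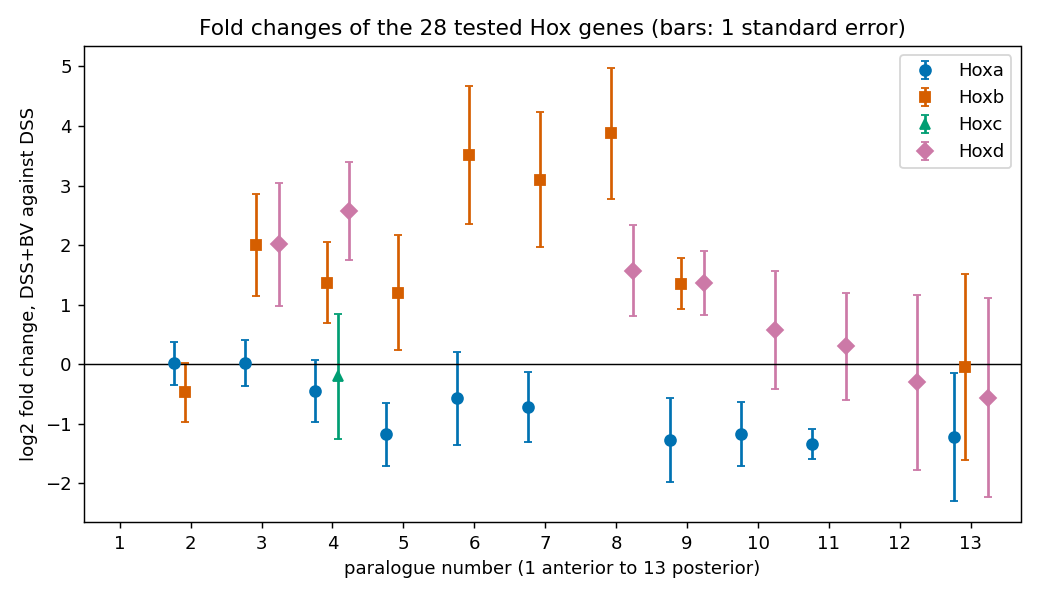
Log2 fold change, DSS+BV against DSS, of the 28 tested Hox genes by paralogue number, with a bar of 1 standard error on each side and a symbol for each cluster. Tested Hoxa genes from Hoxa4 on lie below 0, Hoxb3 to Hoxb9 and Hoxd3 to Hoxd9 lie above 0, and the bars of Hoxb13 and Hoxd13 span 0.

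The spread between mice of one group was large in Hox genes. The median SD of log2 CPM within groups was 1.29 over the 28 tested members and 0.291 over all tested genes. It was highest for Hoxb13, at 4.36, and Hoxd13, at 4.05, followed by Hoxd12 at 2.36, Hoxb6 at 2.1, Hoxa13 and Hoxb7 at 2.07 each and Hoxd10 at 2.04. Hoxb13, Hoxd13 and Hoxd12 had 0 or 1 count in DSS+BV 3, where the log2 value, and so the SD, depends on the prior count of 2. Hoxa11 was an exception to the large spread, with an SD of 0.262 that lay at the 44.3 percentile of all tested genes. By cluster, the median SD was 0.797 in Hoxa, 1.68 in Hoxb and 1.66 in Hoxd.

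Genes known to differ along the length of the mouse colon were set beside the Hox genes, since the labels name no segment. None of the 11 listed position genes in the table, Hoxb13 and Hoxd13 included, was called by edgeR, and 2 had an unadjusted p under 0.05, against 12.5% of all tested genes. Cyp2c55, a cytochrome P450 that is known from the proximal colon, was at 8.32, 833 and 64.3 CPM with DSS alone and 133, 2714 and 3776 CPM with BV added. The carbonic anhydrase Car1 was at 825, 1041 and 939 CPM with DSS alone and 924, 10453 and 8702 CPM with BV added (log2 fold change 2.84, standard error 0.804, edgeR adjusted p = 0.313). Ly6g, a neutrophil antigen gene that is also listed for the distal colon, was at 485, 76.1 and 854 CPM with DSS alone and 303, 215 and 19.1 CPM with BV added. Car1 separated DSS+BV 2 and DSS+BV 3 from the others as Hoxb6 did, and Ly6g was lowest in DSS+BV 3 and DSS 2 as Hoxd13 was.

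Ang4, an antimicrobial ribonuclease, was at 2.04, 7.96 and 3.26 CPM with DSS alone and 16.0, 19.9 and 37.7 CPM with BV added (edgeR adjusted p = 0.245). Car4, a carbonic anhydrase of surface colonocytes, was at 437, 537 and 1736 CPM with DSS alone and 611, 428 and 223 CPM with BV added. The part of sampled position in the Hox values was not tested, and no measure of position other than these genes was at hand.

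**Figure D5:**
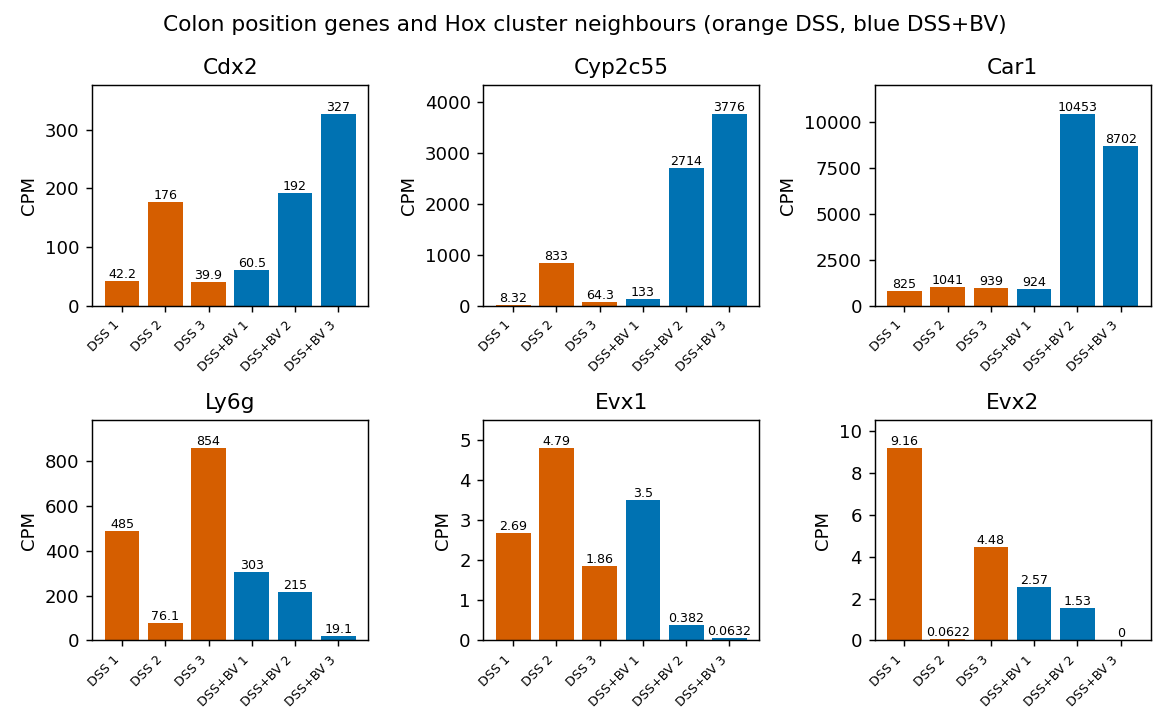
CPM of Cdx2, Cyp2c55, Car1 and Ly6g and of the cluster neighbours Evx1 and Evx2 in each library, with DSS in orange and DSS+BV in blue; each panel starts at 0 and has its own scale. Cdx2 and Cyp2c55 are highest in DSS+BV 3, DSS+BV 2 and DSS 2, and Evx2 is at or near 0 in DSS 2 and DSS+BV 3.

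The caudal-type factors Cdx1 and Cdx2, relatives of the Hox genes that act upstream of them and set intestinal identity, were both expressed. Cdx1 was at 232, 218 and 120.4 CPM with DSS alone and 265, 248 and 266 CPM with BV added, without overlap between the groups (log2 fold change 0.45, standard error 0.254, edgeR adjusted p = 0.510). Cdx2 (picked with its values known) read 42.2, 176 and 39.9 CPM with DSS alone and 60.5, 192 and 327 CPM with BV added. It was high in DSS 2, DSS+BV 2 and DSS+BV 3, the libraries with the lowest posterior difference. Hnf4a, a nuclear receptor of the gut epithelium, was at 514, 708 and 525 CPM with DSS alone and 803, 1019 and 908 CPM with BV added, or 0.64 higher on the log2 scale (standard error 0.194, edgeR adjusted p = 0.329). For its relative Hnf4g the log2 difference was 0.60 (standard error 0.272). For the mesenchymal forkhead genes Foxf1 and Foxf2 it was -0.50 and -0.42 (standard errors 0.199 and 0.193). Of the 10 tested identity factors 0 were called by edgeR, and 2 had an unadjusted p under 0.05, against 12.5% of all tested genes. Factors of the upper gut were near the detection limit, with Pdx1 at most at 0.857 CPM and Gata4 at most at 0.995 CPM.

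Hox proteins bind DNA together with cofactors of the TALE class, encoded by the Pbx, Meis and Pknox genes. Of 8 tested cofactors 0 were called by edgeR, 3 had an unadjusted p under 0.05, and 5 had a log2 fold change below 0 (median -0.32). Over all tested genes, 12.5% had such a p and 51.5% a log2 fold change below 0. Meis2 was at 20.5, 22.6 and 38.0 CPM with DSS alone and 16.8, 13 and 11.8 CPM with BV added (log2 fold change -0.97, standard error 0.287, edgeR adjusted p = 0.323). Pbx3, Meis1 and Pknox2 had log2 fold changes of -0.67, -0.60 and -0.67 (standard errors 0.236, 0.235 and 0.371). The fibroblast markers given above were lower in every DSS+BV library than in every DSS library, and their part in these cofactor values was not tested.

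Retinoic acid switches on Hox genes from the anterior end of each cluster. Of 14 tested genes of its synthesis, transport, reception and breakdown, 0 were called by edgeR, 3 had an unadjusted p under 0.05 (12.5% of all tested genes), and 11 had a log2 fold change below 0 (51.5% of all tested genes), with a median of -0.61. The log2 difference was -0.65 for Dhrs3, a retinal reductase, -1.02 for Cyp26b1, which breaks retinoic acid down, and -0.57 for Rdh10, which makes retinal (standard errors 0.174, 0.406 and 0.267). The synthesis enzymes Aldh1a1 and Aldh1a3, named after their values were seen, differed in order: the same 3 libraries, DSS 2, DSS+BV 2 and DSS+BV 3, had the highest Aldh1a1 and the lowest Aldh1a3. Aldh1a1 was at 22.2, 124 and 41.3 CPM with DSS alone and 35.0, 269.9 and 345 CPM with BV added, and Aldh1a3 at 102, 18.7 and 156 CPM with DSS alone and 82.6, 32.5 and 14.4 CPM with BV added.

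Polycomb and trithorax proteins keep Hox genes silent or active once their state is set. All 27 listed genes were tested and 0 were called by edgeR. An unadjusted p under 0.05 was found for 3 of the 27, near the 12.5% of all tested genes, and the median log2 fold change was 0.01, with 13 below 0. The genes with the smallest p-values are given as a description. The Polycomb gene Cbx7 was at 41.9, 35.9 and 42.2 CPM with DSS alone and 29.2, 25.4 and 28.9 CPM with BV added (log2 fold change -0.52, standard error 0.141, edgeR adjusted p = 0.296). Cbx6 and Ezh1 had log2 fold changes of -0.60 and -0.30, and Kdm6b, which removes the Polycomb mark from histone H3, of 0.37 (standard errors 0.193, 0.130 and 0.139).

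Promoter sequences were found in the RefSeq table for 21 of the 36 members, as 23 windows of 300 bases from 250 bases before to 50 bases after the start of transcription. In the Hoxd3 window a match to CATAAA and a match to AGGTCA overlap. The windows had a median GC content of 57.3% and a median ratio of observed to expected CpG of 0.66, against 52.7% and 0.38 over all 32851 windows of the table. Sites were searched on both strands as CATAAA (letters bound by caudal-type factors), CGTAAA (letters bound by Hox proteins of the posterior groups) and AGGTCA (a half-site of retinoic acid and related receptors). CATAAA was in 5 of the 23 Hox windows (21.7%, against 11.9% of all windows). CGTAAA was in 2 (8.70%, against 3.03%) and AGGTCA in 7 (30.4%, against 16.3%).

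4 of the windows, from genes with different library patterns, are printed 5′ to 3′ on the strand of the gene, with these letters or their complement in capitals: Hoxd13 (low in DSS 2 and DSS+BV 3), Hoxd10 (low in DSS 2 alone), Hoxb8 (high in DSS+BV 2 and DSS+BV 3) and Hoxa11 (lower in each DSS+BV library). Their places on GRCm38.p6 are chr2:74667975-74668274, plus strand, for Hoxd13, chr2:74691641-74691940, plus strand, for Hoxd10, chr11:96281655-96281954, plus strand, for Hoxb8 and chr6:52245761-52246060, minus strand, for Hoxa11.
Hoxd13: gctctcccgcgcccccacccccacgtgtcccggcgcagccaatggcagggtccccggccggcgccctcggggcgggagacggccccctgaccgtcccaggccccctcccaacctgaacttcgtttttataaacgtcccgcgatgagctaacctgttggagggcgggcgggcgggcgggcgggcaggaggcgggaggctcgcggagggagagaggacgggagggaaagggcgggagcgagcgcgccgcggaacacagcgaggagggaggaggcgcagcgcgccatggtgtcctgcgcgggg
Hoxd10: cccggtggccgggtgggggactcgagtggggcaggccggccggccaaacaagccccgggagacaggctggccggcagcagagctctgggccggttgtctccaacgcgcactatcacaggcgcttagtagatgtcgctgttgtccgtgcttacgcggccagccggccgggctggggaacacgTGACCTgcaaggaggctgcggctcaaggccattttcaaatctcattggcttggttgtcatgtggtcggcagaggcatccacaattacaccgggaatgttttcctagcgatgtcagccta
Hoxb8: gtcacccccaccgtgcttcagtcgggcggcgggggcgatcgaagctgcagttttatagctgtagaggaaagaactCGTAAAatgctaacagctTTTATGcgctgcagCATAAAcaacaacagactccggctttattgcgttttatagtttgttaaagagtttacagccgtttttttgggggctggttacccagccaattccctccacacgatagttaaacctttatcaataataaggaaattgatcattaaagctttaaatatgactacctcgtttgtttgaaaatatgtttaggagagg
Hoxa11: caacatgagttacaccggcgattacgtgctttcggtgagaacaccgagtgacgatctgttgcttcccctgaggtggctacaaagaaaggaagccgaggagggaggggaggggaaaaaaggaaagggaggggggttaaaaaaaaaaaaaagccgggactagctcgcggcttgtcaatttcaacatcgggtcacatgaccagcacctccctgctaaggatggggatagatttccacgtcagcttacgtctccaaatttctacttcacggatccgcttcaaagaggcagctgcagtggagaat

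The Hoxb8 window held CATAAA in 2 places and CGTAAA in 1, without overlap, and had a GC content of 42.3%. The Hoxd13 and Hoxa11 windows, with GC contents of 74.3% and 51.0%, held none of the 3 motifs, and the Hoxd10 window, at 62.7%, held AGGTCA once on the opposite strand. The Hoxd10 and Hoxb8 windows lie inside the annotated span of the gene, at a start other than the first. A match is a run of letters, and no binding was measured.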

How the data were processed

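RNA from the colon of 6 mice was sequenced as 1 library each. Per the labels, the submitters' processing notes name HISAT2 2.1.0, Bowtie2 2.2.5, RSEM 1.2.8 and the build GRCm38.p6, without their roles. The authors deposited expected counts per gene from RSEM, not scaled between libraries, and all values of the Hox rows were whole numbers. Whether counting used strand is not given in the sources used here, and 20 of the 36 Hox genes overlap another annotated gene. After rounding to integers, filterByExpr (minimum count 10, minimum total 15) left 14579 of 18477 genes. TMM factors scaled the libraries. The 3 mice of each group were then compared in edgeR 4.0.16 (R 4.3.3; quasi-likelihood F test), with Benjamini-Hochberg adjustment over all tested genes. The standard error is the size of the log2 fold change divided by the square root of its F statistic. The biological coefficient of variation was 32.1%. Log2 CPM values used a prior count of 2. Exon lengths, as the union of the basic transcripts of GENCODE M21, and RefSeq promoters and positions came from the same build. Each library is 1 mouse and no batch is given. Counts of mice of 1 group differed by far more than sampling noise (chi-square over its degrees of freedom 44.9 to 125).

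The comparison was repeated with DESeq2 1.42.0, with upper-quartile or RLE scaling, with 2 other filters, with a robust fit, with the replicate number as a block, without the fold threshold, with other prior counts and without each library. Named genes are all members of group 13, the 2 highest per length of each cluster, up to 5 per direction with the smallest p-values, members without overlap, and up to 4 genes of each companion list with the smallest p-values. Hox members, companion lists and tests were chosen with earlier results of these data known. Some genes that this rule or the lists take in are not reported here. None of the 11 listed noncoding transcripts of the Hox clusters was analysed here. Limits from 3 counts cover counting error only. The statistics were tested on simulated data. Figures were drawn with matplotlib 3.10.9.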

Additional observations from a re-analysis of the deposited data

How the results depend on the processing

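With DESeq2, 280 genes were called lower and 45 higher over the whole table, against 13 and 0 with edgeR, and 1 Hox gene was called lower and 5 higher, against 0 and 0. With 1 library left out in turn, the number of called genes ran from 0 to 3 lower and from 0 to 4 higher over the whole table, and Hox genes from 0 to 1 higher and 0 lower, the 1 being Hoxb8 without DSS+BV 1. Such a fit leaves 2 mice in 1 group. With RLE or upper-quartile factors, either other filter, a robust fit or the adjusted p alone, 0 Hox genes were called by edgeR.

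With the replicate number as a block, 0 genes were called over the whole table and 0 Hox genes. The labels do not state that mice of the same number are paired. The deviations of same-numbered libraries from their group means correlated at 0.267, 0.255 and -0.296 across genes. For libraries of different number the correlations ran from -0.572 to 0.484. Such values cannot show whether the mice were paired.

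The direction of some log2 fold changes rested on 1 library. Hoxb13 ran from -1.12 (without DSS+BV 1) to 0.57 (without DSS 1) and was 0.54 without DSS+BV 3. Hoxd13 ran from -1.41 to 0.55 without the same libraries and was 0.03 without DSS+BV 3. Hoxd11 ran from -0.23 (without DSS 2) to 1.24 (without DSS 1). Hoxc4 ran from -1.77 (without DSS+BV 3) to 0.38 (without DSS+BV 1) and was 0.02 and 0.04 without DSS 2 and DSS+BV 2. The posterior difference of each library moved by less than the SD of its group under all 5 other scalings, prior counts and filters tried. Of the 36 members, 8 had too few counts to be tested.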

Other observations

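Some genes of the list for small intestine and stomach, named after their values were seen, had library patterns like those above. Sucrase-isomaltase, Sis, was at 0, 1.93 and 0.116 CPM with DSS alone and 0.198, 8.28 and 19.5 CPM with BV added. Lactase, Lct, was at 0.120, 0.124 and 0.175 CPM with DSS alone and 0.198, 0.319 and 2.09 CPM with BV added, with 33 counts in DSS+BV 3. The ileal bile acid-binding gene Fabp6 did not share the order, with 0.539, 0.622 and 1.22 CPM with DSS alone and 7.26, 1.91 and 2.34 CPM with BV added. The whole list summed to 17.2 to 34.3 CPM in the DSS group and to 22.5 to 52.3 CPM in the DSS+BV group, with 9 of 11 genes in the table. The goblet cell mucin Muc2 was at 2339, 10171 and 4239 CPM with DSS alone and 6878, 8265 and 20700.3 CPM with BV added.

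The other marker lists gave ranges that overlapped between the groups. Lymphocyte and plasma cell markers summed to 569 to 1594 CPM in the DSS group and 267 to 1136 CPM in the DSS+BV group, and myeloid markers to 612 to 1311 CPM and 351 to 949.8 CPM. Skeletal muscle markers summed to 7.07 to 13.4 CPM and 12.9 to 27.6 CPM, adipose markers to 64.1 to 187 CPM and 41.1 to 72.8 CPM, and exocrine pancreas markers to 45.7 to 81.9 CPM and 31.2 to 112 CPM.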
